A study of Mus musculus with 20 samples.

Results

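Retinoic acid (RA) was 1 of 5 signals set in every combination in the germ layer experiment, a pooled single-cell RNA experiment on mouse embryonic stem cells. Its deposited design gives 32 populations, of which 16 were labelled RA plus and 16 RA minus. The members are the cells whose deposited barcodelet assignment passed, 4350 of 8421 cells (51.7%), and their molecule counts (UMIs) were summed within each population. RA plus populations held 2609 of these cells and RA minus populations 1741. The whole series has 20 labelled samples. Barcodelets are short synthetic RNAs that were delivered to each well by transfection and later read from the same droplets, which marks every cell with its treatment. The description on the label counts more conditions and 2 starting states, which differs from the design table used here, with its 32 conditions and 1 population for each.

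RA plus cells received retinoic acid, and RA minus cells received CD 2665, an antagonist of RA receptors, so that the comparison is agonist against antagonist and not against untreated cells. Every RA plus population has an RA minus partner with the same levels of the other 4 signals, called its background below. Wnt plus was the GSK3 inhibitor XV, which activates Wnt signalling, and Wnt minus was IWR1. Tgfb plus was Activin A and Tgfb minus A8301, an inhibitor of the Activin and Nodal receptors. Bmp plus was Bmp4 and Bmp minus Dorsomorphin, and Fgf plus was Fgf2 and Fgf minus UO126, which blocks the kinase MEK. All populations came from a male 129P2/OlaHsd line that had been kept for 48 h without its usual GSK3 and MEK inhibitors, reseeded in that medium for 24 h, moved to a serum-free medium for 24 h and to a medium with 2% serum for 24 h, and then treated for 24 h. Barcodelet RNA (200 ng per well) was transfected 2 to 16 h before harvest.

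Retinoic acid is made from vitamin A and acts through nuclear receptors, the RARs, which bind DNA together with RXRs and recruit co-activators once RA is bound. Cells carry RA on the binding proteins Crabp1 and Crabp2 and destroy it with enzymes of the Cyp26 family, whose genes RA itself induces. In the early embryo RA is known for switching on Hox genes, which mark position along the body axis, for patterning the hindbrain and spinal cord, and for pushing pluripotent cells out of their undifferentiated state.

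Each population is a single sum of cells, so a condition has no replicate of its own. The spread behind each test is the residual spread of an additive model of the 5 signals over 32 populations, all in 1 droplet library, and p-values measure only the spread between these populations. RA plus populations held a median of 171 cells (97 to 230) and 2463127 UMIs (1447515 to 3816595), and RA minus populations 108.5 cells (70 to 152) and 1796353.5 UMIs (991630 to 2984668). The median cell had 14794 UMIs in RA plus and 16115 in RA minus populations. Levels below are CPM, the UMI counts of a population scaled to a common total with TMM factors, and in such sums fewer cells of a type and less RNA per cell cannot be told apart. Of the 8 pluripotency markers, Pou5f1, Sox2, Nanog, Zfp42, Dppa5a, Utf1 and Tdgf1 had UMIs in all 32 populations. Esrrb was low, with at most 4.48 CPM before TMM scaling in RA plus and 9.04 in RA minus populations. Markers of blood and endothelium were low. Tal1 was at 0 in 29 populations, Gata1 in 28 and Kdr in 9. Pecam1 had UMIs in all 32 populations, with medians of 4.19 CPM before TMM scaling in RA plus and 4.32 in RA minus populations.

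Of 10614 tested genes, 1492 were higher and 1445 lower with RA at an adjusted p under 0.05 (edgeR quasi-likelihood test, Benjamini-Hochberg adjustment), 27.7% of the tested genes in either direction, 14.1% higher and 13.6% lower. The median fitted log2 change was -0.00. Larger changes were fewer: 186 genes rose at least 2-fold (1.75%) and 88 fell at least 2-fold (0.829%). For 23 genes (0.217%) the ranges of the 16 RA plus and 16 RA minus populations did not overlap, 19 of them higher and 4 lower with RA.

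The promoters of Rarb and Cyp26a1 are shown for the classical retinoic acid response element. Among the 119 genes raised at least 2-fold whose promoters were searched, these 2 genes alone held it. That element, DR5, is a direct repeat of a 6-base unit with 5 bases between the copies, where each unit may be AGGTCA or AGTTCA, or else GGGTCA or GGTTCA. It was searched on both strands of RefSeq promoters of build GRCm38.p6, which run from 250 bases before to 50 bases after the start site. The sequences read 5′ to 3′ on the strand of the gene, and capitals mark the whole element with its spacer. The Rarb window is chr14:16575427-16575726 (minus strand), with the element at chr14:16575513-16575529 on the minus strand, 53 bases before the start site. The Cyp26a1 window is chr19:37697558-37697857 (plus strand), with the element at chr19:37697776-37697792, 32 bases before the start site and on the opposite strand to the gene, so that its units stand in the window as reverse complements.
Rarb: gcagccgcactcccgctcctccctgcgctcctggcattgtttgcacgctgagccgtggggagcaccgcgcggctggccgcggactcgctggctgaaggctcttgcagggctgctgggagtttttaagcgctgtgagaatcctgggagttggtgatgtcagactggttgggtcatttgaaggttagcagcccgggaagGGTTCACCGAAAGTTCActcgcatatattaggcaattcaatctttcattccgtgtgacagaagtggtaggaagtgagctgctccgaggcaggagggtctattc
Cyp26a1: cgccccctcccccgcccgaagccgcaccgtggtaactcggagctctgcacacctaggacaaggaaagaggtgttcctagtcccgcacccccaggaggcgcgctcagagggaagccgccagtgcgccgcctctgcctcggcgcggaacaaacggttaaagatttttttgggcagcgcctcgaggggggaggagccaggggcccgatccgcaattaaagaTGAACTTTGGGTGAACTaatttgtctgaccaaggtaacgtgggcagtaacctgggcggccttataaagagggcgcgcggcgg

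The element stood in 32 of 32851 promoters of the table (0.0974%), in 4 of 10395 promoters of tested genes and in 2 of 160 promoters of genes raised at least 2-fold. The other 2 tested genes that held it were Blvrb, a biliverdin reductase, at 0.04 ± 0.08 (adjusted p = 0.77, edgeR), and Syndig1, a synapse protein, at 0.05 ± 0.19 (adjusted p = 0.898, edgeR). These are fitted log2 changes from edgeR ± SE. Here and below, SE was calculated as the absolute change divided by the square root of the quasi-likelihood F statistic. Repeats of the same units with spacers of 2 bases (DR2) or 1 base (DR1) were found in 0 of the 160 promoters, and in 0.0770% (DR2) and 0.231% (DR1) of the promoters of tested genes. The 10395 promoters belong to 8108 genes, and the 160 to 119 of the 186 genes raised at least 2-fold. The remaining genes had no searched promoter. A match is a description of these letters in this window, and no match says nothing on elements outside it.

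Genes that make, carry and destroy RA moved mostly upward. Of 11 tested members of the retinoid handling list, 6 rose, 1 fell and 4 did not pass, with a median log2 change of 1.09. Over all tested genes, 14.1% rose and 13.6% fell. Crabp2, the RA carrier that delivers it to the nucleus (ENSMUSG00000004885, chr3:87948666-87953376), stood at 140 to 744 CPM (median 279) in RA plus populations, against 31.0 to 69.4 CPM (median 51.1) in RA minus populations. The 2 sets of populations did not overlap, and the fitted change was 2.59 ± 0.14 (adjusted p = 3.27e-16, edgeR). It was lowest among RA plus populations with Wnt, Tgfb and Fgf plus and Bmp minus, and highest with all 4 minus.

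Cyp26a1, the main enzyme that degrades RA (ENSMUSG00000024987, chr19:37697798-37701536), stood at 20.3 to 102 CPM (median 41.4) in RA plus populations, against 4.62 to 85.7 CPM (median 14.4) in RA minus populations. Its ranges overlapped, as 4 RA minus populations lay above the lowest RA plus one, at 31.5, 32.9, 52.8 and 85.7 CPM, the last with Wnt, Tgfb and Fgf plus and Bmp minus. The fitted log2 change was 1.24 ± 0.24 (adjusted p = 0.000206, edgeR), and the RA plus population was higher in 15 of 16 backgrounds. Dhrs3, which turns retinaldehyde back into retinol, stood at 20.6 to 75.5 CPM (median 40.7) with RA, against 2.11 to 22.4 CPM (median 9.84) without. Its change of 2.03 ± 0.16 was positive in 16 of 16 backgrounds, although the ranges overlapped slightly (adjusted p = 5.89e-12, edgeR).

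Stra6, a membrane receptor for retinol carriers, rose by 1.09 ± 0.31. Fabp5, another lipid carrier that can bind RA, was the member that fell, by 0.29 ± 0.08, with 307 to 464 CPM (median 388) in RA plus and 343 to 679 CPM (median 438) in RA minus populations. Crabp1, the other RA carrier, rose by 1.39 ± 0.38 (adjusted p = 0.00535, edgeR), but its level reached 513 CPM in 1 RA plus population with all other signals minus, against a median of 33.2 CPM over RA plus and 25.9 CPM over RA minus populations. The Crabp1 call was lost without the 4 populations with the fewest cells (0.87, adjusted p = 0.138), all 4 of which are RA minus and Bmp minus. Rdh10, which oxidises retinol (-0.21 ± 0.16), and Rdh11, a retinal reductase (-0.18 ± 0.08), did not pass, and neither did Adh5 or Rbp4.

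Among the RA receptors, Rarb and Rara rose and Rarg did not pass. Rarb, the RA receptor beta (ENSMUSG00000017491, chr14:16430839-16819156), stood at 11.2 to 48.2 CPM (median 25.5) in RA plus populations, against 0.486 to 9.25 CPM (median 2.58) in RA minus populations. No RA minus population reached the lowest RA plus one, and the change was 3.08 ± 0.17 (adjusted p = 5.44e-16, edgeR). Rarb overlaps Top2b in the annotation. The sources used here do not say if reads were counted by strand, and its counts are uncertain to that extent. Rara, the alpha receptor, stood at 18.7 to 38.5 CPM (median 31.9) with RA, against 9.83 to 23.3 CPM (median 15.3) without, a change of 0.91 ± 0.09 that was positive in 16 of 16 backgrounds. Rarg, the gamma receptor, was at 0.03 ± 0.12 (adjusted p = 0.885).

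Of 12 tested receptors and co-regulators, 4 rose and 1 fell, with a median of 0.07 (14.1% of all tested genes rose and 13.6% fell). Nrip1, a co-repressor that binds RARs when RA is present, stood at 58.4 to 115 CPM (median 79.4) in RA plus populations, against 21.1 to 53.8 CPM (median 37.2) in RA minus populations. These ranges did not meet, and the change was 1.19 ± 0.07 (adjusted p = 1.13e-14, edgeR). Ncor1, a co-repressor of unbound receptors, rose by 0.11 ± 0.04, a call lost with RA alone and in cells at or above the median barcodelet fraction (adjusted p = 0.0693 and 0.0545, edgeR). Rxrg, 1 of the RXR partners, fell by 1.09 ± 0.24 at low levels, with medians of 1.67 CPM in RA plus and 3.24 CPM in RA minus populations. Rxra, Rxrb, Ncoa1, Ncoa2 and Ncoa3 did not pass the test.

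Known RA target genes outside these families rose in most cases, 12 of 18 tested members, with 1 lower and a median of 1.10. The shares over all tested genes were 14.1% higher and 13.6% lower. Stra8, a gatekeeper of meiosis in germ cells that was first found as an RA-stimulated gene (ENSMUSG00000029848, chr6:34920163-34939344), had the largest change of the genes named by the rule. It stood at 20.04 to 81.9 CPM (median 35.5) in RA plus populations, against 0 to 4.92 CPM (median 1.98) in RA minus populations. The ranges lay far apart, and the change was 4.13 ± 0.20 (adjusted p = 9.76e-18, edgeR). Rec8, a meiotic cohesin, also rose, by 1.74 ± 0.17, while Sycp3, a protein of the synaptonemal complex, fell by 1.06 ± 0.16. Of 4 other germ cell markers, Dazl had a median of 1.74 CPM before TMM scaling in RA plus and 0.898 in RA minus populations, and Ddx4 3.11 in RA plus and 2.95 in RA minus populations. Dppa3, also a gene of naive stem cells, had 4.94 in RA plus and 7.86 in RA minus populations, with UMIs in all 32, and Prdm1 had 1.93 in RA plus and 2.88 in RA minus populations.

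Meis1, a partner of Hox proteins on DNA, stood at 9.57 to 71.4 CPM (median 36.9) with RA, against 2.71 to 17.6 CPM (median 5.53) without, a change of 2.54 ± 0.17 (adjusted p = 7.32e-14, edgeR). Tshz1, a zinc finger factor related to the fly trunk gene teashirt, stood at 39.4 to 91.4 CPM (median 60.6) in RA plus populations and 4.36 to 22.8 CPM (median 12.01) in RA minus populations. Both genes were higher with RA in 16 of 16 backgrounds, and only the Tshz1 ranges stayed apart of these 2 genes. Cdx1, an activator of Hox genes, rose by 1.62 ± 0.16. Fgf8, a growth factor of the posterior embryo that RA is known to repress, was the member that fell: 5.67 to 97.2 CPM (median 12.9) in RA plus and 6.32 to 213 CPM (median 49.6) in RA minus populations, a change of -1.45 ± 0.28 (adjusted p = 0.000119, edgeR).

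The other genes whose populations did not overlap included several that are not in the lists. Mdk, which encodes the growth factor midkine, known as an RA-responsive gene, stood at 1201 to 1757 CPM (median 1473) in RA plus populations, against 455 to 805 CPM (median 538) in RA minus populations. The spread within each level was small beside the gap, and the change was 1.39 ± 0.05 (adjusted p = 5.19e-21, edgeR). Ppl, encoding the desmosomal protein periplakin, stood at 15.1 to 61.9 CPM with RA, against 3.36 to 13.5 CPM without. Hmox1, a heme oxygenase, stood at 30.0 to 58.6 CPM in RA plus populations, against 68.1 to 188 CPM in RA minus populations, and Ddx3x, an RNA helicase, at 181 to 229 CPM in RA plus and 230 to 329 CPM in RA minus populations. Plekhf2 and Tpd52l1 were the other genes whose RA plus populations all lay below every RA minus one. These 6 genes were chosen for this separation after their values were seen. Csn3, the milk protein kappa-casein, whose annotation overlaps another gene, stood at 5.38 to 66.9 CPM (median 21.99) with RA, against 0 to 5.99 CPM (median 2.83) without. BC048679 stood at 1.20 to 57.7 CPM (median 13.1) in RA plus populations, against 0 to 4.25 CPM (median 1.03) in RA minus populations. Both were higher with RA in 16 of 16 backgrounds, by 3.21 ± 0.24 and 3.98 ± 0.28.

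**Figure D1:**
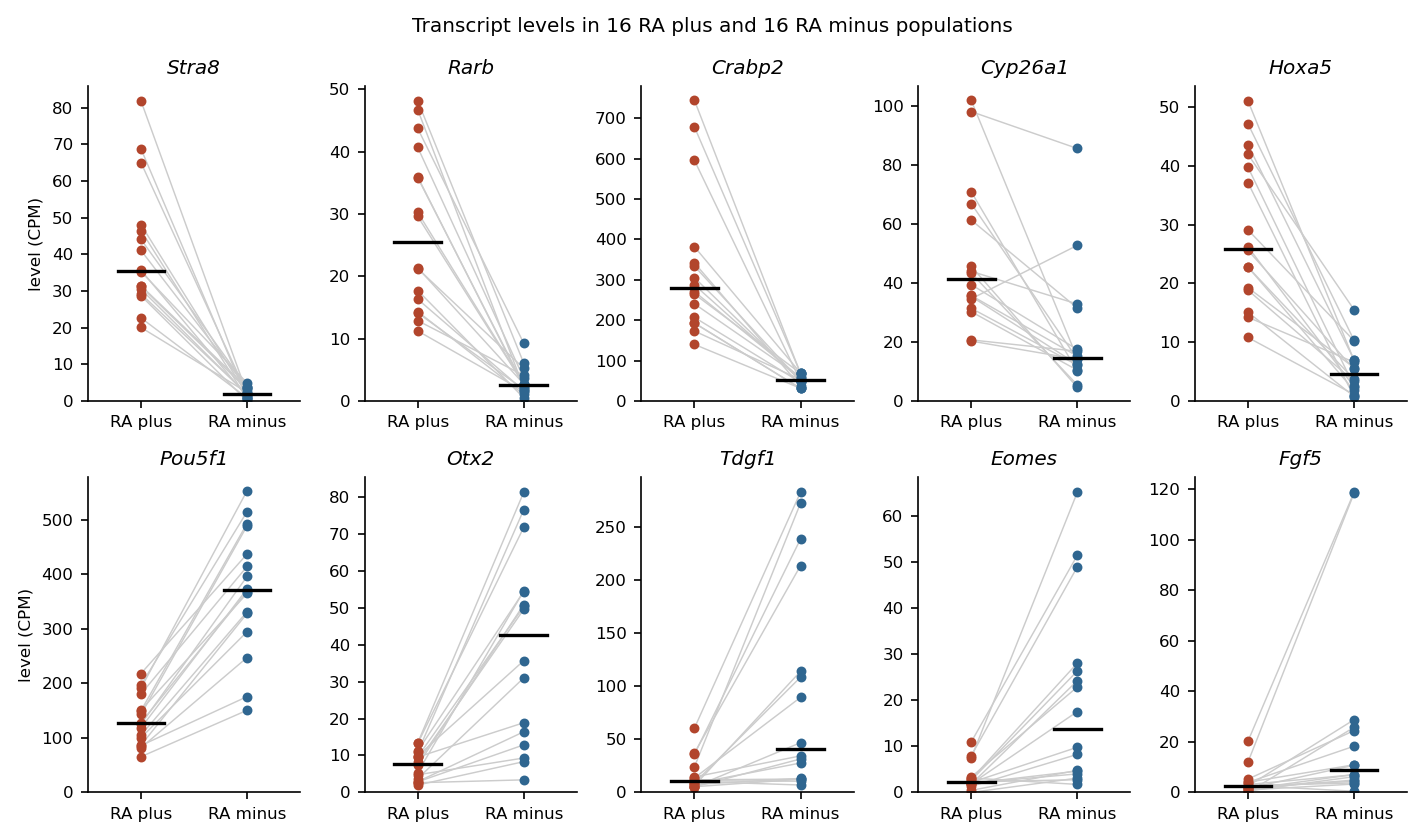
Levels in CPM (vertical axes, linear, each from 0) of 10 genes in the 16 RA plus (left) and 16 RA minus populations (right). Points are populations, grey lines join partners with the same other 4 signals and black bars are medians. Stra8, Rarb and Crabp2 do not overlap, whereas RA minus populations spread from 3.402 to 81.3 CPM for Otx2 and from 6.99 to 283 CPM for Tdgf1.

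Hox genes formed the list with the highest median change, 2.32, and 22 of 25 tested members rose while 0 fell (14.1% of all tested genes rose). The list holds 21 Hox genes and 4 noncoding RNAs of the clusters, and 20 further listed genes had too few counts to be tested. Hoxb2, active in the hindbrain, stood at 18.4 to 142 CPM (median 52.99) with RA, against 3.64 to 64.1 CPM (median 10.8) without. It was higher with RA in 16 of 16 backgrounds, although the ranges overlapped, and the change was 1.97 ± 0.19 (adjusted p = 1.01e-09, edgeR). Hotairm1, a noncoding RNA of the Hoxa cluster, stood at 81.1 to 206 CPM in RA plus and 14.7 to 69.0 CPM in RA minus populations, with no overlap; its annotation overlaps others, so its counts are uncertain.

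Genes of the middle of the clusters changed as much on the log scale from lower levels. Hoxa5 stood at 10.8 to 51.1 CPM (median 25.9) in RA plus populations, against 0.702 to 15.6 CPM (median 4.55) in RA minus populations, a change of 2.48 ± 0.19. Hoxb5 was at 1.35 to 23.3 CPM in RA plus and 0 to 4.14 CPM in RA minus populations (2.95 ± 0.34). Hoxc5 was at 2.497 to 24.1 CPM in RA plus and 0 to 2.44 CPM in RA minus populations, the only Hox gene without overlap (2.62 ± 0.31). Hoxc9 (chr15:102976439-102985099) ran from 2.01 to 85.3 CPM (median 10.0) with RA and from 0.388 to 12.4 CPM (median 2.74) without, a change of 2.82 ± 0.30, and Hoxc8 and Hoxa7 likewise reached 93.1 and 110 CPM in single RA plus populations. Counts of Hoxc6, Hoxc8, Hoxc9 (each overlapping Hoxc5), Hoxa5 and Hoxa7 (Hoxaas3), Hoxb5 and Hoxb6 (Hoxb5os) and Hoxb2 and Hoxb3 (Hoxb3os) are uncertain, since these annotations overlap.

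The 3 Hox genes that did not pass were Hoxb1, Hoxb9 and Hoxd9. Hoxb1, which specifies a hindbrain segment (ENSMUSG00000018973, chr11:96365752-96368256), stood at 7.18 to 73.5 CPM (median 26.5) in RA plus and 0.845 to 89.9 CPM (median 6.12) in RA minus populations, a change of 0.80 ± 0.31 (adjusted p = 0.0506, edgeR). It passed under 5 of 11 alternative analyses, with values from 0.81 (library totals alone, adjusted p = 0.0499) to 1.47 (all pairwise products, adjusted p = 3.8e-08). Hoxb9 was at 0.53 ± 0.37 (adjusted p = 0.299) and Hoxd9 at 0.94 ± 0.37 (adjusted p = 0.054, edgeR). The Hoxd9 change passed at 1.18 in cells at or above the median barcodelet fraction (adjusted p = 0.014, edgeR).

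**Figure D2:**
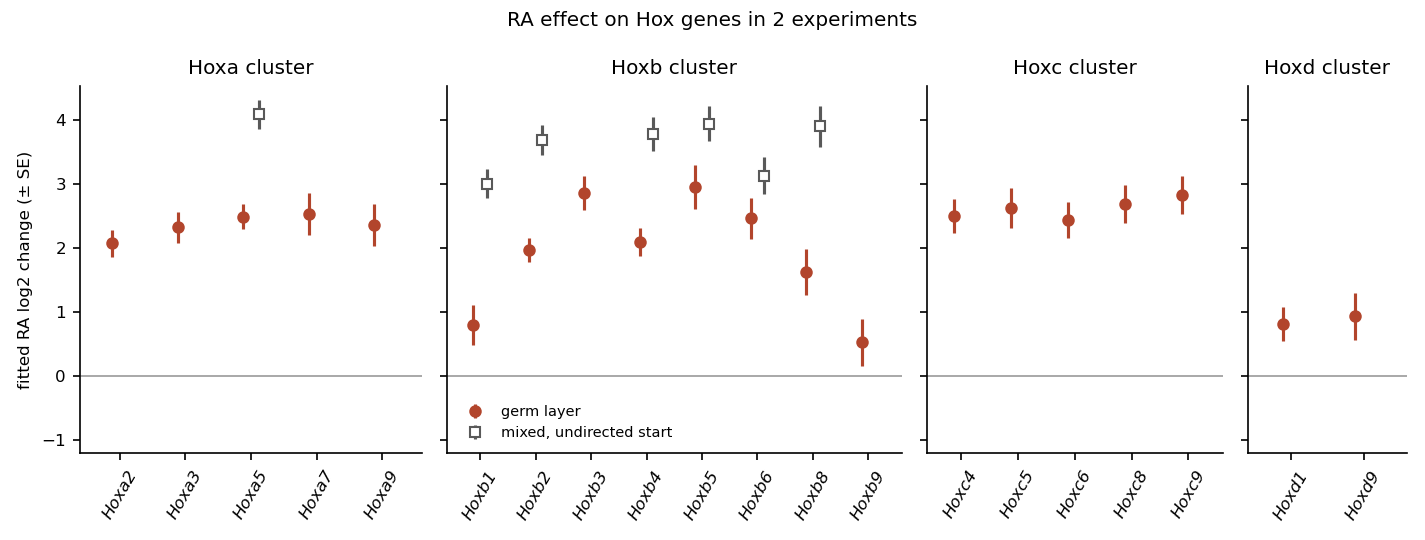
Fitted RA log2 change ± SE (vertical axis) of 20 of the 21 tested Hox genes by cluster, in the germ layer experiment (filled circles) and, where tested, in wells of the mixed experiment with an undirected start (open squares). Germ layer log2 changes lie from 0.53 for Hoxb9 to 2.95 for Hoxb5. The mixed value of each Hox gene drawn for both is higher. However, only 9 of the 25 tested Hox list members, noncoding RNAs included, had enough counts in the mixed wells. Members with weak RA changes there may be left out, so this shared direction is not read as a result. The joint fit called a difference for 7 of 22 members (11.1% of all tested genes, edgeR).

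Hox RNA also differed between Wnt levels. Summed over the 9 tested Hox genes of paralogue groups 1 to 4, the mean level was 294 ± 128 CPM with RA and Wnt plus, 301 ± 111 CPM with RA plus and Wnt minus, 129 ± 77.0 CPM with RA minus and Wnt plus, and 41.4 ± 8.88 CPM with both minus (SD, 8 populations each). The 8 genes of groups 5 to 8 averaged 184 ± 89.5 CPM with both plus, 72.6 ± 27.9 CPM with RA plus and Wnt minus, 34.5 ± 14.6 CPM with RA minus and Wnt plus, and 10.4 ± 2.601 CPM with both minus. The 4 genes of groups 9 to 13 averaged 96.8 ± 51.8 CPM with both plus, 11.7 ± 6.76 CPM with RA plus and Wnt minus, 24.4 ± 9.53 CPM with RA minus and Wnt plus, and 6.88 ± 3.83 CPM with both minus. The anterior sums of the RA plus populations differed little between Wnt levels, whereas the posterior sums averaged 96.8 CPM where both were plus and 24.4 CPM or less elsewhere. These sums were not tested. Over the single genes, Wnt raised 5 of 9, 6 of 8 and 4 of 4 members of these groups (12.1% of all tested genes). It lowered 0, 1 and 0 members of them (11.9% of all tested genes).

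**Figure D3:**
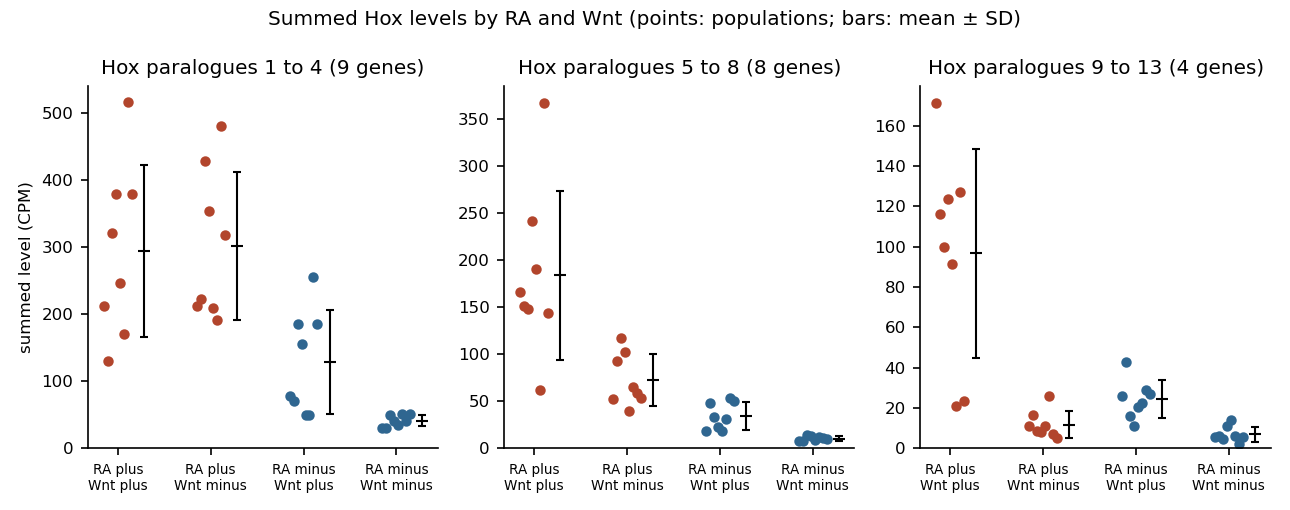
Summed level in CPM (vertical axes, linear from 0) of the tested Hox genes of paralogue groups 1 to 4, 5 to 8 and 9 to 13 in the 8 populations of each RA and Wnt combination, with mean ± SD. In groups 9 to 13 the mean is 96.8 CPM with RA and Wnt plus and 24.4 CPM or less in the other 3 combinations.

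A test of the product of RA and Wnt asks whether the RA effect differs between Wnt levels; it is the RA log2 change with Wnt plus less that with Wnt minus. It was called for 153 of 10937 tested genes (1.4%, edgeR), and for 414 of 11410 when all pairwise products of the signals were in the model. For Hoxb1 it was -2.61 ± 0.52 (adjusted p = 0.0068). With Wnt plus, Hoxb1 averaged 36.7 ± 22.6 CPM in RA plus and 38.4 ± 35.4 CPM in RA minus populations, and with Wnt minus 22.7 ± 6.24 CPM in RA plus and 3.55 ± 2.02 CPM in RA minus populations (SD, 8 populations each). Hoxa2, Hoxb2, Hoxc4, Hotairm1 and Hoxb3os had products of the same sign, from -2.26 ± 0.53 for Hoxc4 to -1.33 ± 0.22 for Hotairm1, so the RA change of these 5 transcripts and of Hoxb1 was smaller where Wnt was plus. Prrx2, a homeobox factor of mesenchyme, had -1.67 ± 0.25 (adjusted p = 0.000709). It averaged 24.1 ± 16.2 CPM in RA plus and 16.1 ± 12.1 CPM in RA minus populations with Wnt plus, and 86.2 ± 52.9 CPM in RA plus and 18.9 ± 12.2 CPM in RA minus populations with Wnt minus. Ptms, encoding parathymosin, had a product of -0.77 ± 0.11, and its RA effect over all backgrounds was -0.04 ± 0.10 (adjusted p = 0.807). Rarg had a positive product, 0.75 ± 0.20 (adjusted p = 0.0449), with 32.0 ± 9.62 CPM in RA plus and 24.7 ± 7.20 CPM in RA minus populations under Wnt plus, and 18.8 ± 5.30 CPM in RA plus and 24.2 ± 5.03 CPM in RA minus populations under Wnt minus. The RA difference in these means had opposite signs at the Wnt levels.

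The product of RA and Bmp was called for 163 genes (1.49%, edgeR), and for 344 with all pairwise products. Slc2a1, the glucose transporter Glut1, had -1.94 ± 0.17 (adjusted p = 4.07e-09). With Bmp plus it averaged 191 ± 80.0 CPM in RA plus and 362 ± 223 CPM in RA minus populations, and with Bmp minus 420 ± 122 CPM in RA plus and 197 ± 62.6 CPM in RA minus populations. The RA difference had opposite signs at the Bmp levels, and the fitted effect over backgrounds was 0.11 ± 0.20 (adjusted p = 0.729). Klhl23 had 2.21 ± 0.29, with 40.9 ± 14.9 CPM in RA plus and 10.4 ± 3.72 CPM in RA minus populations under Bmp plus, and 7.99 ± 1.24 CPM in RA plus and 9.42 ± 2.87 CPM in RA minus populations under Bmp minus. Fabp5 had -0.70 ± 0.09 (adjusted p = 3.01e-05), and averaged 339 ± 23.6 CPM in RA plus and 531 ± 91.3 CPM in RA minus populations under Bmp plus, against 424 ± 23.1 CPM in RA plus and 405 ± 40.3 CPM in RA minus populations under Bmp minus. The lower level with RA in these means was seen under Bmp plus and not under Bmp minus. Hoxb1 was again called, at 1.71 ± 0.46 (adjusted p = 0.0489). The 4 populations with the fewest cells all belong to the RA minus and Bmp minus group, and their part in these products was not tested.

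In the model with the products of RA alone, edgeR called 0 of 10937 genes for Tgfb and 0 for Fgf, where 725 genes for Tgfb and 898 for Fgf had an unadjusted p under 0.05. With all pairwise products edgeR called 20 for Tgfb and 47 for Fgf, and DESeq2 called 1 for Tgfb and 17 for Fgf in the first model. Ebf1, a transcription factor of lymphoid and neural development, had the smallest adjusted p for Tgfb (1.85 ± 0.35, adjusted p = 0.0759), and Ptbp3, a splicing regulator, for Fgf (0.55 ± 0.11, adjusted p = 0.104).

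**Figure D4:**
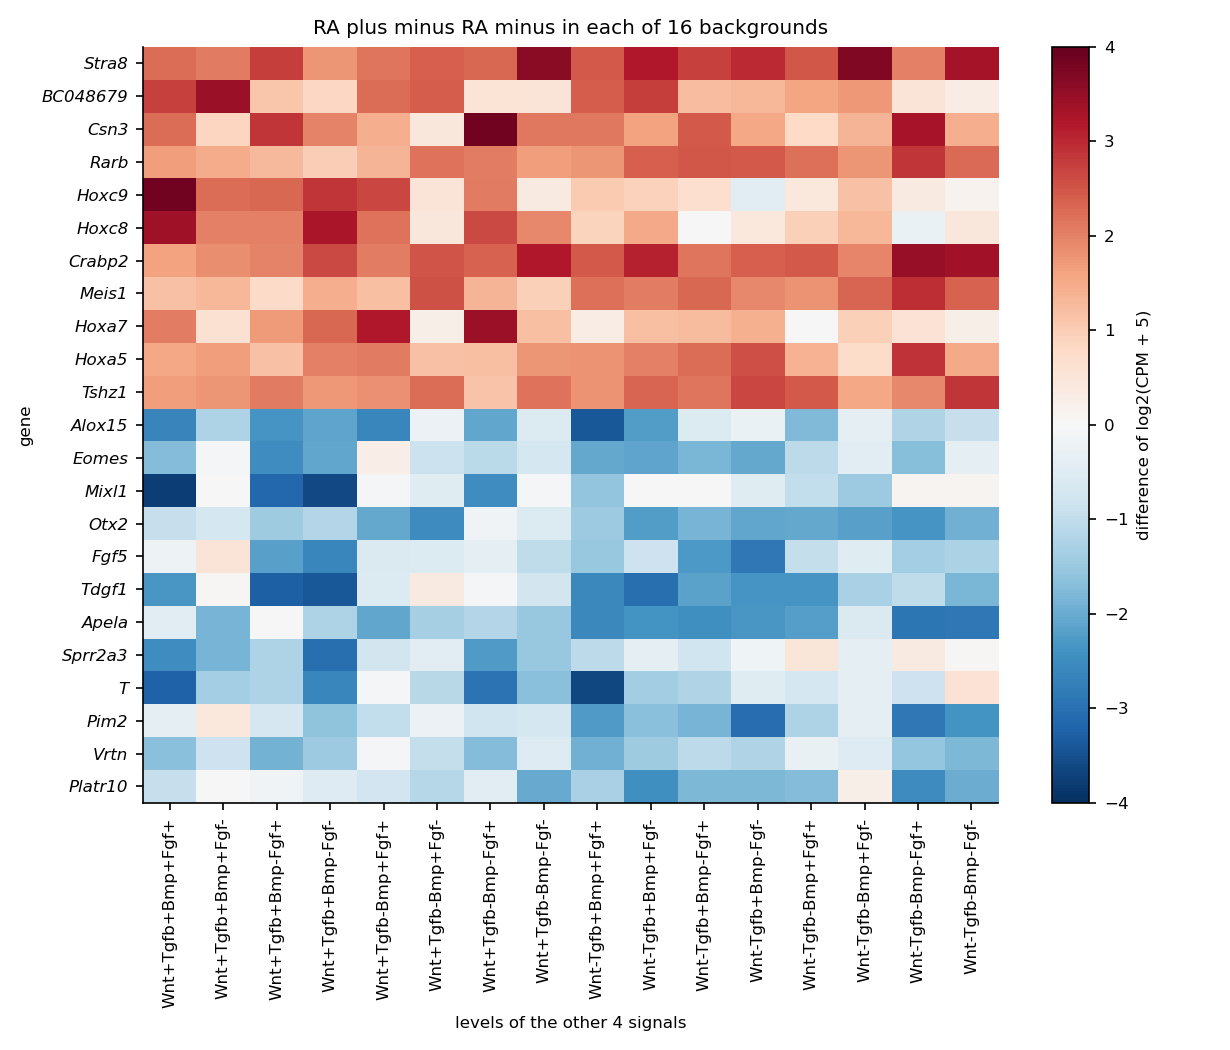
Difference of log2(CPM + 5), RA plus less RA minus, of 23 of the 24 genes with the largest fitted changes (rows) in each of 16 backgrounds (columns; plus and minus give the levels of Wnt, Tgfb, Bmp and Fgf). Red is higher and blue lower with RA: Stra8 runs from 1.77 to 3.70, Hoxc9 from -0.46 to 3.85 and Mixl1 from -3.78 to 0.12.

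Most core pluripotency genes fell. Of 14 tested members, 11 fell and 0 rose, with a median of -0.60 (13.6% of all tested genes fell). Pou5f1, which encodes the pluripotency factor Oct4 (ENSMUSG00000024406, chr17:35506018-35510772), stood at 65.5 to 218 CPM (median 127) in RA plus populations, against 151 to 553 CPM (median 371) in RA minus populations. Its ranges met, but the RA plus population was the lower one in 16 of 16 backgrounds, and the change was -1.49 ± 0.07 (adjusted p = 6.95e-18, edgeR). L1td1, an RNA-binding protein of stem cells, fell by 1.05 ± 0.13. Sox2, which is shared with neural progenitors, was at 0.34 ± 0.14 (adjusted p = 0.0766), with a median of 82.2 CPM in RA plus and 52.9 CPM in RA minus populations; it passed in 3 alternative analyses, at 0.28 to 0.43.

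Of genes of the naive state, 4 of 11 fell and 0 rose (13.6% of all tested genes fell), among them Tdh, a threonine dehydrogenase of mouse stem cells (-1.16 ± 0.19), and Klf5 (-0.77 ± 0.13), a factor of self-renewal. The calls of Zfp42 (-0.49 ± 0.13) and Klf2 (-0.49 ± 0.17) were each lost in 3 alternative analyses (adjusted p = 0.0618 to 0.229 for Zfp42 and 0.134 to 0.182 for Klf2, edgeR). Primed epiblast genes fell in 6 of 11 cases and rose in 1, with a median of -0.88 (14.1% of all tested genes rose). Otx2, a factor of the epiblast and of the forebrain (ENSMUSG00000021848, chr14:48657677-48673819; it overlaps Otx2os1), stood at 2.00 to 13.4 CPM (median 7.79) with RA, against 3.402 to 81.3 CPM (median 42.6) without. It was lower with RA in 16 of 16 backgrounds, by 2.37 ± 0.22 (adjusted p = 2.27e-10, edgeR).

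Fgf5, the classical marker of the primed epiblast, stood at 0 to 20.2 CPM (median 2.58) in RA plus populations, against 0.460 to 119 CPM (median 8.91) in RA minus populations. The highest RA minus values belonged to the populations with Wnt and Bmp minus and Tgfb plus, and the change was -2.35 ± 0.29 (adjusted p = 1.43e-07, edgeR). Pim2, a kinase (-1.86 ± 0.24), and Dnmt3b, a DNA methyltransferase of the epiblast (-0.88 ± 0.13), also fell, while Sox3, a neural factor, rose by 0.84 ± 0.21. Alox15, a lipoxygenase (ENSMUSG00000018924), had the largest fall of the named genes, -2.74 ± 0.24 (adjusted p = 1.24e-10, edgeR), with 1.19 to 6.92 CPM (median 4.14) in RA plus and 4.14 to 81.4 CPM (median 22.9) in RA minus populations.

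Primitive streak genes mark cells on the way to mesoderm and endoderm. They fell in 8 of 11 cases and rose in 1, with a median of -0.92 (13.6% of all tested genes fell and 14.1% rose). Eomes, which starts mesendoderm formation (ENSMUSG00000032446, chr9:118478212-118486132), stood at 0 to 10.95 CPM (median 2.22) with RA, against 1.74 to 65.2 CPM (median 13.7) without. T, which encodes brachyury, stood at 9.53 to 207 CPM (median 21.7) in RA plus and 9.40 to 490 CPM (median 56.7) in RA minus populations, and Mixl1, a homeobox factor of the streak, at 0.401 to 21.6 CPM (median 5.48) in RA plus and 0 to 231 CPM (median 11.1) in RA minus populations. The highest RA minus value of all 3 was in the same population, with Wnt, Tgfb and Fgf plus and Bmp minus, and the fitted changes were -2.54 ± 0.23, -1.89 ± 0.31 and -2.42 ± 0.42. For Mixl1 the RA plus population was lower in 12 of 16 backgrounds, and in the other 4 the levels were close, at most 11.9 CPM with RA and 11.5 CPM without. Evx1, a homeobox factor of the posterior streak, fell by 1.70 ± 0.25, and Wnt3, a ligand needed to form the streak, by 0.92 ± 0.16.

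Members of the Nodal pathway split. Tdgf1, the Nodal co-receptor Cripto (ENSMUSG00000032494, chr9:110939603-110946158), stood at 5.19 to 60.7 CPM (median 10.6) in RA plus populations, against 6.99 to 283 CPM (median 40.6) in RA minus populations, a change of -2.34 ± 0.23 (adjusted p = 1.04e-09, edgeR). Lefty1 and Lefty2, secreted Nodal inhibitors, rose, by 1.66 ± 0.40 and 1.55 ± 0.23. Lefty1 ran from 13.01 to 1727 CPM (median 65.4) with RA and from 24.99 to 201 CPM (median 50.7) without, and its 4 highest populations were RA plus, Tgfb plus and Bmp minus. Its call was lost when each cell was scaled on its own (0.97, adjusted p = 0.0518). Nodal itself was at 0.31 ± 0.10 (adjusted p = 0.0208), a call lost in 4 alternative analyses (adjusted p = 0.0803 to 0.477). In all, 5 of 14 tested members rose and 3 fell (14.1% of all tested genes rose and 13.6% fell).

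Neural lists are read against all tested genes, of which 14.1% rose and 13.6% fell. In the neural ectoderm list 7 of 15 rose and 1 fell (median 0.34), in the hindbrain list 5 of 12 rose and 0 fell (median 0.72), and in the neural crest list 5 of 10 rose and 0 fell (median 0.50). The hindbrain list shares members with the Hox and RA target lists, counted above. Sox1, an early neural factor, rose by 1.86 ± 0.34 and Pax6, a factor of the neural tube, by 1.74 ± 0.37, both at low levels: the Sox1 medians were 2.62 CPM in RA plus and 1.72 CPM in RA minus populations, and the Pax6 medians 2.82 CPM in RA plus and 1.80 CPM in RA minus populations. Pax6 reached 79.5 CPM in the RA plus population with all other signals minus, and its call was lost without the 4 smallest populations (1.25, adjusted p = 0.0639). Sox9 (1.70 ± 0.26), Ednrb, the endothelin receptor of crest cells (1.77 ± 0.31), and Msx1, a BMP-responsive homeobox factor (0.92 ± 0.15), rose among crest genes. Of 15 forebrain and midbrain genes, 3 could be tested: Otx2 and Sp5 (-1.15 ± 0.22) fell and Lhx2 rose (1.29 ± 0.30).

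The other lineage lists differed in how many members passed, where 27.7% of all tested genes passed in either direction. Endoderm genes had 0 higher and 1 lower of 9, where Foxa2 was at -0.64 ± 0.23 (adjusted p = 0.0399), a call that 7 of 11 alternative analyses lost. Extraembryonic endoderm had 0 higher and 2 lower of 16: Fst, an Activin-binding protein also found in epiblast, fell by 1.31 ± 0.22 and Sparc, a matrix protein, by 0.49 ± 0.14 (adjusted p = 0.125 in cells at or above the median barcodelet fraction, edgeR). Surface ectoderm and trophoblast had 4 higher and 3 lower of 15, with Dlx5 (1.09 ± 0.19) and Dlx3 (0.83 ± 0.15) up and Cdh1, E-cadherin (-0.51 ± 0.08), down. Paraxial mesoderm had 1 higher and 3 lower of 6, with Rspo3, a Wnt enhancer, down by 1.52 ± 0.22 in 16 of 16 backgrounds. Lateral and cardiac mesoderm had 1 higher and 2 lower of 8, with Hand1 down (-0.87 ± 0.19) and Wt1 up (1.12 ± 0.27). None of 4 blood and endothelium genes passed. Their median was -0.08, and single genes ranged from -0.18 ± 0.17 for Pecam1 to 0.39 ± 0.23 for Lmo2. These counts are of the RA effect over all backgrounds. The product of RA and Bmp (1.49% of all tested genes, edgeR) was called for 9 of 16 extraembryonic endoderm and 4 of 9 endoderm genes. It was called for 3 of 8 lateral and cardiac mesoderm, 2 of 6 paraxial mesoderm and 0 of 15 surface ectoderm and trophoblast genes.

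The counts of the other signalling pathways stand beside 14.1% of all tested genes higher and 13.6% lower. FGF and ERK genes fell in 9 of 23 cases and rose in 3. Egr1, an immediate early gene of ERK, fell by 1.11 ± 0.20, while Dusp5, a nuclear ERK phosphatase (1.09 ± 0.18), and Fgfr2, a receptor (0.82 ± 0.14), rose. Hedgehog genes rose in 4 of 8 cases and fell in 0, led by the co-receptors Boc (1.34 ± 0.28) and Gas1 (1.24 ± 0.35) and by Gli3, a transcription factor of the pathway, which stood at 31.7 to 63.3 CPM (median 43.2) with RA, against 18.6 to 39.7 CPM (median 30.3) without. The Gas1 call was lost without the 4 smallest populations (1.02, adjusted p = 0.0624). Wnt genes had 6 higher and 6 lower of 29, with the receptor Fzd8 (1.81 ± 0.24) and the antagonist Sfrp2 (0.79 ± 0.13) up and Wnt3, Rspo3 and the target Sp5 down. BMP genes had 4 higher and 1 lower of 15, and Notch genes 1 higher and 3 lower of 11. In the Cdx and posterior growth list, 4 of 17 rose and 7 fell: Cdx1 rose with RA in 16 of 16 backgrounds while T, Evx1 and Fgf8 fell, as given above.

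**Figure D5:**
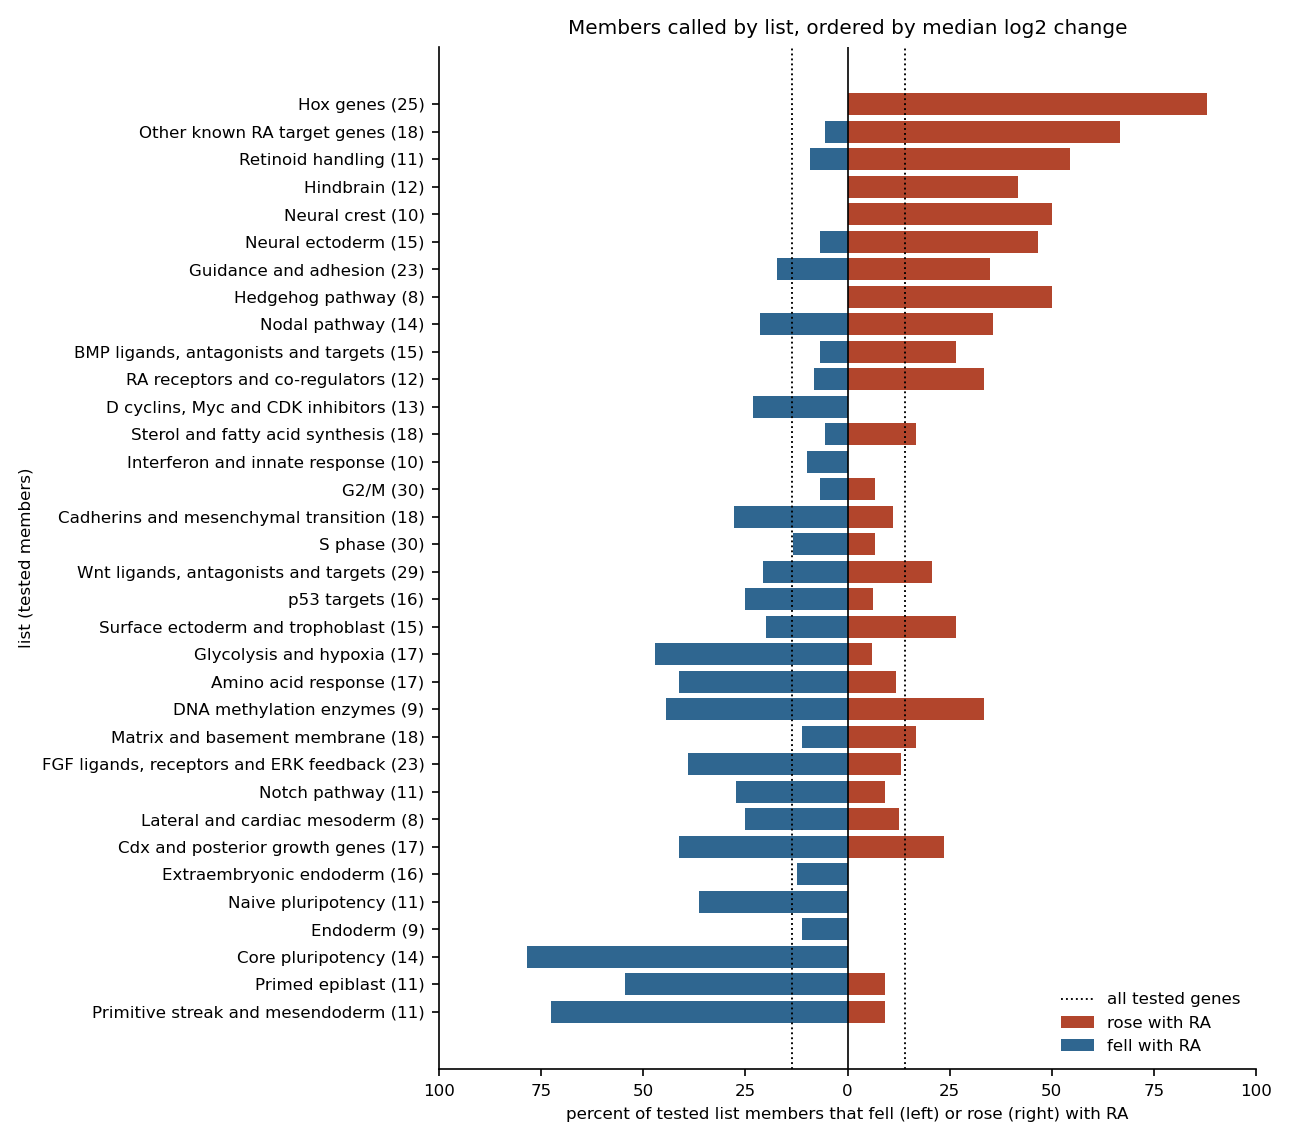
Percent of tested members called lower (left) and higher (right) with RA in each list with at least 8 tested members (number in parentheses), ordered by median fitted change; dotted lines mark all tested genes (13.6% lower, 14.1% higher). Hox genes have 22 of 25 members higher, and core pluripotency genes 11 of 14 lower.

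The glycolysis, amino acid response, cell cycle and DNA methylation lists had small median changes, from -0.15 to 0.01. The counts below stand beside 14.1% of all tested genes higher and 13.6% lower. Glycolysis and hypoxia genes fell in 8 of 17 cases and rose in 1, with a median of -0.12: Ldha, lactate dehydrogenase A, stood at 383 to 632 CPM (median 515) in RA plus populations, against 398 to 879 CPM (median 665) in RA minus populations (-0.37 ± 0.05, adjusted p = 5.51e-07, edgeR). Amino acid response genes fell in 7 of 17 cases and rose in 2 (median -0.15), with Cth, a cysteine-making enzyme, down by 0.87 ± 0.10 in 16 of 16 backgrounds. S phase genes had 2 higher and 4 lower of 30, and G2/M genes 2 higher and 2 lower of 30, below the share of all tested genes. DNA methylation enzymes split 3 higher and 4 lower of 9, with Tet2 (0.85 ± 0.23) and Tet3 (0.39 ± 0.10) up and Dnmt3b and Tet1 (-0.33 ± 0.09) down. The Tet1 call was lost after thinning and with RA alone in the model (adjusted p = 0.187 and 0.0925, edgeR). The Tet3 call was lost in cells at or above the median barcodelet fraction (adjusted p = 0.0552, edgeR). Guidance and adhesion genes had 8 higher and 4 lower of 23, with a median of 0.32. Nrp1, a semaphorin co-receptor, rose by 1.29 ± 0.20, and Slit3, a guidance ligand, fell by 1.49 ± 0.18.

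Cell numbers and cell summaries moved with RA as well. RA plus populations held 163 ± 38.6 cells and RA minus populations 109 ± 27.9 (SD, n = 16 each), a mean difference of 54.25 cells that was positive in 15 of 16 pairs (exact 2-sided sign-flip permutation test over pairs, adjusted p = 0.000732 over 8 summaries). The median UMI count per cell was 14922 ± 1345 in RA plus and 16193 ± 1105 in RA minus populations (adjusted p = 0.00458, exact permutation test), and the mitochondrial share 3.25 ± 0.126% in RA plus and 3.44 ± 0.151% in RA minus populations (adjusted p = 0.00305, exact permutation test). Ribosomal protein genes took 26.0 ± 1.31% of UMIs in RA plus and 25.2 ± 1.78% in RA minus populations (adjusted p = 0.00439, exact permutation test). The shares of the S phase and G2/M lists differed by -0.00306 and 0.00345 percentage points (adjusted p = 0.568 for both, exact permutation test), which misses the threshold. Growth, survival, mixing and assignment cannot be told apart in these cell numbers, and the part of these summaries in the gene results was not tested.

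The share of cells with a UMI of a gene shows how a population's sum was spread over its cells. Each cell was thinned to 8000 UMIs, which left out 332 RA plus and 201 RA minus cells. Stra8 had a UMI in 9.90 to 20.2% of cells (median 13.6%) of RA plus populations, against 0 to 3.57% (median 1.496%) of RA minus populations. Rarb had one in 7.67 to 30.1% (median 16.8%) of cells with RA, against 0 to 7.28% (median 2.07%) without. Unthinned, the medians were 20.8% in RA plus and 2.78% in RA minus populations for Stra8, and 30.1% in RA plus and 4.30% in RA minus populations for Rarb. Both genes were seen in a minority of RA plus cells at this depth, which does not show that the other cells lack the transcript. No share of free RNA was measured here, so background and expression in the RA minus cells cannot be told apart for these 2 genes. Pou5f1 had a UMI in 36.6 to 71.3% of cells (median 56.6%) of RA plus populations, against 62.8 to 93.6% (median 86.0%) of RA minus populations. Alox15 had one in 0.502 to 3.99% (median 2.77%) of cells with RA, against 2.37 to 36.7% (median 16.5%) without, and Hoxb1 in 5.599 to 36.4% (median 15.7%) with RA, against 0 to 41.1% (median 3.62%) without. Eomes had one in 0 to 8.28% (median 1.52%) of cells with RA, against 1.64 to 29.5% (median 8.87%) without. For Csn3 the medians were 14.5% in RA plus and 2.11% in RA minus populations, and for BC048679 8.64% in RA plus and 0.762% in RA minus populations.

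In the same fit, over the same 32 populations, Bmp changed more genes than RA, 21.6% higher and 21.5% lower of all tested genes. Wnt changed 12.1% higher and 11.9% lower, Fgf 4.58% higher and 3.35% lower, and Tgfb 4.07% higher and 2.95% lower.

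The mixed experiment, a separate pool with its own droplet library, holds wells with the same 5 signals and an undirected start, and gives another measurement of the RA effect. Of 64 such wells, 62 held at least 5 cells (1422 cells, 30 RA plus and 32 RA minus wells), and the mixed tables give plus and minus there without naming a compound. RA changed 2316 of 6295 tested genes in these wells (36.8%, edgeR; 17.8% higher and 19.0% lower). Of 6281 genes tested in both, 1933 were called in the germ layer experiment and 2309 in the mixed wells. The same direction was called in both for 987, which is 51.1% of the germ layer calls and 42.7% of the mixed calls, and opposite directions for 47. The libraries share 64 cell barcodes, 10 of them among assigned cells of the 2 sets. Experiment, library and start cannot be told apart.

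The difference between the RA effects was called for 947 of 8503 genes (11.1%, edgeR joint fit). Stra8 changed by 4.13 ± 0.20 in the germ layer populations and by 4.47 ± 0.20 in mixed wells, a difference of -0.37 ± 0.62 in the joint fit (adjusted p = 0.764), and Crabp2 by 2.59 ± 0.14 in the germ layer populations and 2.5996 ± 0.24 in mixed wells. Cyp26a1 differed by -2.28 ± 0.31 (adjusted p = 8.31e-08): its change was 1.24 ± 0.24 here and 3.52 ± 0.16 in mixed wells, where RA plus wells stood at 34.7 to 197 CPM (median 129) and RA minus wells at 0 to 28.6 CPM (median 11.6). Hoxb1 was at 0.80 in the germ layer populations and 3.00 in mixed wells, Hoxb8 at 1.62 here and 3.90 there, Hoxa5 at 2.48 here and 4.08 there, and Rarb at 3.08 here and 4.14 there, with adjusted p from 0.000112 for Hoxb1 to 0.0383 for Rarb. Mycn, a growth-promoting factor, fell by 0.28 ± 0.11 in the germ layer populations, a call at the threshold that 9 alternative analyses lost (adjusted p = 0.0495, edgeR; 0.058 to 0.348 in those), and by 1.98 ± 0.12 in mixed wells. The difference was 1.74 ± 0.17 (adjusted p = 1.48e-13, edgeR). Gpx4, a lipid peroxidase, rose by 0.17 ± 0.05 in the germ layer populations (adjusted p = 0.0798 without the 4 smallest populations, edgeR) and by 0.98 ± 0.05 in mixed wells (difference -0.79 ± 0.08, adjusted p = 8.87e-12). Eomes had too few counts in the mixed wells for a change of its own but entered the joint fit, with a difference of -1.69 ± 0.38. Of the 24 genes with the largest changes, 5 differed between the experiments.

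As a check on other cells, 3 fibroblast markers were tested and 2 rose, Dcn (1.84 ± 0.36) and Col1a2 (0.60 ± 0.21, a call lost in 5 alternative analyses with adjusted p = 0.0529 to 0.223, edgeR). Summed over the 7 listed markers they stood at 5.53 to 64.9 CPM (median 24.6) in RA plus populations and 5.13 to 33.6 CPM (median 17.3) in RA minus populations. Lum was at 0 in 20 of 32 populations, Dcn in 3, Col1a1 in 2 and Col1a2 in 0. Their part in the results was not tested.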

How the data were processed

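Single-cell RNA was measured in the germ layer and mixed experiments. The deposited matrices hold raw UMI counts per gene and cell, and the authors' deposited assignment tables give barcodelet counts per cell and the fraction of them in the leading barcodelets. How cells were assigned and whether counting used strand are not given in the sources used here. Per the submitters' processing notes, Cell Ranger 1.3.1, STAR 2.5.2b, HTSeq 0.9.1 and build mm10 were used, with no role or order named.

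Cells with a passing assignment were summed per population (991630 to 3816595 UMIs). No doublet caller was run. Counts were fitted with edgeR 4.0.16 in R 4.3.3 (TMM scaling, filterByExpr, quasi-likelihood test) on RA, Wnt, Tgfb, Bmp and Fgf as additive terms. Products of RA with the other signals were fitted in 1 further model, and the difference between experiments in a joint fit. P-values were adjusted over all tested genes by the Benjamini-Hochberg method. Alternatives used DESeq2 1.42.0, limma 3.58.1, other scalings, filters, models and cell sets. Values per cell were handled in Python 3.11.15, and paired cell summaries tested by all 65536 sign flips. On simulated counts of the RA comparison over 10614 genes, only genes above an average of 10 CPM were given changes. Of such genes, 94.0% of those changed 1.5-fold and 100% of those changed 2-fold were called, and 8.0% of calls were unchanged genes. For the product of RA and Wnt, 62.7% and 94.0% were called at these folds. For the difference between experiments, 71.6% and 94.0% were called. Recovery below 10 CPM was not tested.

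Gene positions are from GENCODE vM21 (GRCm38) and promoters from RefSeq (GRCm38.p6). The members and gene lists were chosen with earlier results of these data known. Genes were named by rule: the 12 largest called changes each way with a mean of at least 10 CPM, without Gm, Rik, mitochondrial and ribosomal protein genes; all tested retinoid handling, receptor and Hox genes; the 4 smallest adjusted p of each other list and 1 of opposite direction; and the 2 smallest adjusted p of each product and of the difference. Intervals of counting error are not given, as SE and SD are over populations. Some genes that the rule names are not reported here.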

Additional observations from a re-analysis of the deposited data

Results flagged for a closer look

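The RA effect differed between Wnt levels for 153 genes by the test of the product. Values are the RA log2 change with Wnt plus less that with Wnt minus. Named genes among them included Apela (1.38), Hotairm1 (-1.33), Hoxa2 (-1.61), Hoxb1 (-2.61), Hoxb2 (-1.35), Hoxb3os (-1.69), Hoxc4 (-2.26), Prrx2 (-1.67), Ptms (-0.77), Rarg (0.75). Apela, a secreted peptide of stem cells, averaged 28.6 ± 11.5 CPM in RA plus and 73.3 ± 30.1 CPM in RA minus populations with Wnt plus, and 15.5 ± 3.57 CPM in RA plus and 104 ± 46.5 CPM in RA minus populations with Wnt minus.

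The RA effect differed between Bmp levels for 163 genes, among them Fabp5 (-0.70), Hoxb1 (1.71), Klhl23 (2.21), Slc2a1 (-1.94). These values are the RA log2 change with Bmp plus less that with Bmp minus.

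The RA effect differed between the germ layer populations and the mixed wells for 947 genes. Named genes with such a difference, as the germ layer less the mixed log2 change, included Adh5 (0.33), Apela (-0.81), Cyp26a1 (-2.28), Dhrs3 (-1.15), Eomes (-1.69), Gpx4 (-0.79), Hotairm1 (-1.06), Hoxa5 (-1.67), Hoxb1 (-2.23), Hoxb2 (-1.74), Hoxb4 (-1.77), Hoxb8 (-2.41), Mycn (1.74), Nrip1 (-0.74), Rarb (-1.23). Experiment, library and start cannot be told apart.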

How the results depend on the processing

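Of 1492 genes higher and 1445 lower with RA, other analyses called 866 and 853 (at least 50 counts in 16 populations, 5223 genes tested), 815 and 720 (RA alone), 850 and 841 (cells at or above the median barcodelet fraction, with fewer cells) and 869 and 942 (thinned to 991630 UMIs); of all 2937 calls, 1562, 1535, 1607 and 1714 were shared. The other 8 settings stayed within 1.5 times. With all pairwise products, the product of RA was called for 414 genes with Wnt, 344 with Bmp, 20 with Tgfb and 47 with Fgf, against 153, 163, 0 and 0; DESeq2 called 1 with Tgfb and 17 with Fgf. The causes were not tested. The barcodelet difference per cell was -102 as medians (adjusted p = 0.311) and -447 as means over cells (adjusted p = 0.00208, exact permutation test). Signs changed for uncalled values near 0: Rarg -0.0121 and Gata2 0.14 (all pairwise products); Ncoa1 0.0211 and Gata2 0.0433 (cells scaled one by one); Gata2 0.0268 (DESeq2) and 0.0332 (thinned); Ptms 0.00880 (thinned); Ncoa3 0.00403 and Slc2a1 -0.00283 (median barcodelet fraction); Runx1 0.19, Ihh 0.0747 and Slc2a1 -0.17 (without the 4 smallest populations). Of 193 named genes reported, 187 kept direction and side of the threshold with DESeq2, 192 with RLE scaling and 182 with the 16 backgrounds as a block. Fewer kept both in other settings, some of which tested fewer of these genes. With RA alone 121 kept both and 38 calls were lost, and after thinning 143 kept both and 19 were lost. In cells at or above the median barcodelet fraction 142 kept both and 26 calls were lost. Without the 4 smallest populations 166 kept both and 20 calls were lost. Without the other signals in the model, the calls of Dlx3, Dlx5, Fgfr2, Hand1, Msx1 and Sp5 were among those lost (adjusted p = 0.0656 to 0.432, edgeR). By replicate number, no paired analysis was possible because the numbers in the labels belong to bulk libraries not used here and the 32 populations carry none; the block of 16 backgrounds pairs populations by their other signals and called 1544 higher and 1452 lower.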
